A study of Mus musculus with 262 samples.

Results

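The endothelin system of the mouse renal collecting duct is described here through 6 genes: the ligands Edn1, Edn2 and Edn3, the receptors Ednra and Ednrb, and the converting enzyme Ece1. They were taken by symbol from every deposited table, and each symbol named a single row among the 47069 genes of the TPM tables (TPM, an abundance scaled by transcript length and library total). The genes were chosen by name, as a family selected on the levels that these cell types, sorted fractions and tubules show, so the levels below describe these samples, and the tests run on the same samples are not independent evidence for the choice of genes.

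All 262 samples came from male mice aged 2 months. C57BL/6 mice gave the single cells, which the authors named as 87 type A intercalated, 23 type B intercalated, 74 principal, 19 proximal tubule and 32 non-epithelial cells. The same strain gave 2 bulk samples sorted on c-Kit and 2 sorted on DBA, together with tubules dissected by hand, namely 11 collecting ducts from the cortex (CCD) and 8 thick ascending limbs from the cortex (cTAL). The strain labelled Atp6v1b1GFP gave 2 GFP-positive and 2 GFP-negative bulk samples, sorted on GFP fluorescence. c-Kit is the receptor tyrosine kinase encoded by Kit, and DBA is a lectin that binds principal cells. The cells had been sorted before capture, with the labels DBA, c-Kit, DBA + c-Kit or PNA. The PNA label was carried by 17 of the 23 type B cells. DBA + c-Kit was the label of 60 of the 87 type A and 37 of the 74 principal cells. The labels do not say which samples came from separate animals, so the p-values below measure the spread between these samples, which may be technical.

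Endothelins are short peptides that are cut from long precursors, first by a furin-type protease and then by endothelin-converting enzyme. They act on a pair of G protein-coupled receptors. The A receptor is best known from vascular smooth muscle, where it drives contraction. The B receptor binds all 3 peptides about equally well, and in the collecting duct its activation by endothelin is known to lower sodium and water reabsorption through nitric oxide and calcium signals.

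The 3 ligands are distinct genes with closely related active peptides, and their coding stretches are shown because every ligand value below depends on telling these transcripts apart. A script found each stretch in the GENCODE M21 transcripts as the 21 codons that hold the cysteine spacing of an endothelin and end in tryptophan. The 4 cysteine codons, whose residues form the peptide's disulfide bridges, are in capitals, and each stretch reads 5′ to 3′ on the plus strand.
Edn1: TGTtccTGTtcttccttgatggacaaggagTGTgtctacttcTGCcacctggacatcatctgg
Edn2: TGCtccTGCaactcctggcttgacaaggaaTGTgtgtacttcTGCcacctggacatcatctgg
Edn3: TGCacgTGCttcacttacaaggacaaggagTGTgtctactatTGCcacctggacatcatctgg

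In GRCm38 these stretches lie in exon 2 of 5 of each gene, at chr13:42303649-42303711 for Edn1, chr4:120161951-120162013 for Edn2 and chr2:174761749-174761811 for Edn3. Edn1 and Edn2 shared 53 of the 63 bases and 18 of the 21 residues. Edn1 and Edn3 shared 50 bases and 15 residues, and Edn2 and Edn3 48 bases and 15 residues. Edn3 was therefore the most divergent of the 3, and the codons after the last cysteine were the same in all of them. The other members lie at chr8:77663031-77724464 (Ednra) and chr14:103814625-103844402 (Ednrb), both on the minus strand, and chr4:137862237-137965229 (Ece1) on the plus strand.

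The labels were checked against markers. Slc26a4, the chloride and bicarbonate exchanger of type B cells, was at 1 TPM or more in 23 of 23 type B cells. Aqp2, the vasopressin-regulated water channel, was at that level in 74 of 74 principal cells, but also in 58 of 87 type A cells. The leukocyte gene Ptprc was at that level in 30 of 32 non-epithelial cells. Of 7 endothelial markers, 3 (Pecam1, Cdh5 and Kdr) were at that level in none of them. The sum of the 7 reached 1 TPM in 6 of these 32 cells and was 91.1 TPM at most. The summed level of 4 thick ascending limb markers was 33081 to 53179 TPM in cTAL and 694 to 1858 TPM in CCD, and that of 6 principal cell markers was 25196 to 46522 TPM in CCD and 43.6 to 213 TPM in cTAL. One CCD, named m2_CCD2 in the deposited table, had 7621 genes at 1 TPM or more, against 10323 to 14004 in the others. Reads in genes numbered 35530885 to 40815091 per GFP sample, and depth is unknown for the TPM tables. In the bulk samples, fewer cells of a type and less RNA per cell cannot be told apart.

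Edn3 was the most abundant endothelin ligand in the single cells, and its highest mean was in type A intercalated cells. It averaged 145 TPM over the 87 type A cells, with an SD over cells of 321, a median of 1.77 and a highest value of 1536 TPM. Detection, meaning 1 TPM or more, was found in 45 type A cells (51.7%, exact Clopper-Pearson 95% interval 40.8% to 62.6%, as for all intervals below; they cover counting error only). In the 45 cells with Edn3 the median was 121 TPM, and 23 cells exceeded 100 TPM. The 2 highest cells held 22.7% of the summed signal, so the mean did not rest on a pair of cells. All 45 cells with Edn3 held the type A marker Slc4a1 at 1 TPM or more, as did 32 of the 42 type A cells without Edn3. The intercalated marker Foxi1 was at that level in 33 of the 45 and 25 of the 42, and the leukocyte marker Cd74 in 36 and 32.

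Type B cells followed with a mean of 34.5 TPM and detection in 7 of 23 cells (30.4%, 13.2% to 52.9%). All 7 carried Slc26a4, at 491 to 2325 TPM, and Foxi1, the transcription factor of intercalated cells. The intervals of type A and type B overlapped. Animals are not named for the cells, so each type counts as 1 sample and no difference between types was tested.

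Outside the intercalated types Edn3 was sparse. Non-epithelial cells averaged 17.2 TPM, with Edn3 in 4 of 32 cells (12.5%, 3.51% to 29.0%), and principal cells 8.51 TPM, with 5 of 74 cells (6.76%, 2.23% to 15.1%). In principal cells 2 cells held 97.6% of the signal. The highest principal cell, at 549 TPM of Edn3, also held 39.0 TPM of Foxi1 and 34.5 TPM of Slc4a1, the chloride and bicarbonate exchanger of type A cells. Of the 5 principal cells with Edn3, 3 held Foxi1 at 1 TPM or more, compared with 7 of the 69 without Edn3. Among the 4 non-epithelial cells with Edn3, the 2 highest were at 318 and 166 TPM. Slc4a1 was at 1 TPM or more in 3 of these 4, Foxi1 in 2 and Aqp2 in 3, compared with 12, 7 and 12 of the 28 without Edn3. Whether those chambers held more than 1 cell was not tested. In proximal tubule cells no cell reached 1 TPM. For a count of 0 the limit given here and below is 3 cells divided by the number of cells, not the exact interval, so 0 of 19 cells allows a share of up to 15.8%.

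**Figure D1:**
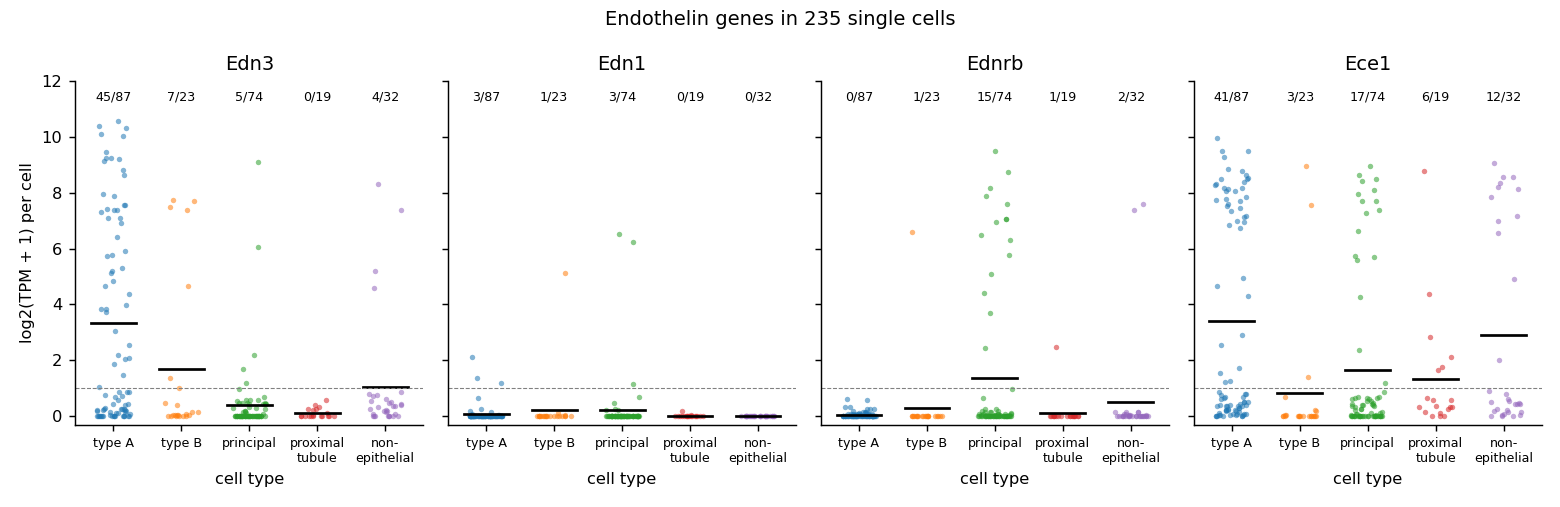
Each point is 1 cell and its height is log2(TPM + 1); black bars are means over cells, the dashed line marks 1 TPM, and the fraction above each group counts the cells at 1 TPM or more. Edn3 and Ece1 were spread over many type A cells, Ednrb reached 1 TPM in 15 of 74 principal cells and in 0 of 87 type A cells, and Edn1 reached 1 TPM in 7 cells.

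In the sorted fractions Edn3 followed the intercalated cell markers. It measured 132 and 139 TPM in the c-Kit samples and 9.28 and 6.64 TPM in the DBA samples, a ratio of means of 17.0. Both c-Kit samples lay above both DBA samples, as did 73.9% of all 14341 genes tested in one direction or the other, since 2 against 2 samples seldom overlap here. The log2(TPM + 1) difference was 3.94 (SE 0.14, limma adjusted p = 8.25e-06, n = 2 per group), while the 0.05 threshold on the adjusted p was passed by 44.3% of all tested genes. The 4 intercalated cell markers summed to 4361 to 4941 TPM in c-Kit and 325 to 338 TPM in DBA.

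GFP-positive cells held 4311 and 5578 reads of Edn3, or 116 and 147 CPM (reads scaled to library size, not to length). GFP-negative cells held 220 and 205 reads, or 5.15 and 6.00 CPM. The GFP-positive samples were both higher, with a ratio of means of 23.6. The log2 difference was 4.56 (SE 0.22, edgeR quasi-likelihood adjusted p = 2.77e-05), where 32.6% of the 15671 genes tested were called and 70.2% had groups that did not overlap. The intercalated markers summed to 2120 to 3075 CPM in GFP-positive and 28.1 to 48.6 CPM in GFP-negative samples.

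Among tubules Edn3 separated the segments completely. It ranged from 14.3 to 98.9 TPM in the 11 CCD, with a median of 54.9 TPM, and from 0 to 0.11 TPM in the 8 cTAL, with a median of 0.045 TPM. The lowest CCD was thus far above the highest cTAL. No overlap was found for 5.51% of the 13520 genes tested. The log2(TPM + 1) difference was 5.68 (SE 0.34, limma adjusted p = 5.83e-12), against a median of 0.31 over all tested genes, and 18.7% of genes were called. Edn3 exceeded Edn1 in 11 of 11 CCD and Ednrb in 9 of 11. The exceptions for Ednrb were m2_CCD2 and m3_CCD1, where Edn3 was 38.1 and 14.3 TPM.

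Edn1, the ligand most studied in the collecting duct, was detected in few single cells. Cells at 1 TPM or more numbered 3 of 74 among principal, 3 of 87 among type A and 1 of 23 among type B cells, and there were none among proximal tubule or non-epithelial cells. In the principal cells it was 74.4, 90.7 and 1.21 TPM, so 98.3% of the signal came from 2 cells. The 3 type A cells lay between 1.28 and 3.40 TPM and the type B cell was at 34.2 TPM. Zeros in 19 and 32 cells allow shares of up to 15.8% and 9.38%.

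In bulk, Edn1 was 1.97 and 1.54 TPM in c-Kit and 2.69 and 4.17 TPM in DBA samples. Both c-Kit values lay below both DBA values, where 73.9% of all genes did not overlap. The log2 difference of -0.67 (SE 0.24) missed the threshold (limma adjusted p = 0.0649). GFP-positive samples had 8.28 and 8.97 CPM and GFP-negative samples 5.76 and 9.80 CPM. These groups overlapped, and the log2 difference was 0.15 (SE 0.35, edgeR adjusted p = 0.782), and it was -0.19 when the GFP-negative sample at 5.76 CPM was left out. The authors' RPKM table, scaled per length and library, gave 0.562 and 6.20 RPKM for the GFP-negative samples, where the count table held 246 and 335 reads. The spread between these samples thus differs between the deposited tables. Which values are right, or whether columns were swapped, is not known.

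Tubules varied widely in Edn1. In CCD it ran from 0 to 14.5 TPM with a median of 2.21, reached 1 TPM in 6 of 11 and was listed at 0 in 4. In cTAL it ran from 0 to 12.6 TPM with a median of 0.01 and reached 1 TPM in 2 of 8. The segments overlapped, and the log2(TPM + 1) difference of 0.66 (SE 0.63) did not pass (limma adjusted p = 0.533). It ran from 0.41 without m6_CCD2 to 1.09 without m2_cTAL1. With sample weights in the fit it was 1.51 (adjusted p = 0.0369).

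Edn2 was at or near 0 throughout. It was listed at 0 in every single cell, which allows a share of up to 1.28%, and in all 19 tubules. The c-Kit and DBA samples did not exceed 0.14 TPM. In the GFP samples it had 0, 11, 1 and 1 reads, the 11 in a GFP-negative sample. It passed no filter on low values and was not tested in the main fits. Alternative fits without such a filter included it for the sorted fractions.

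**Figure D2:**
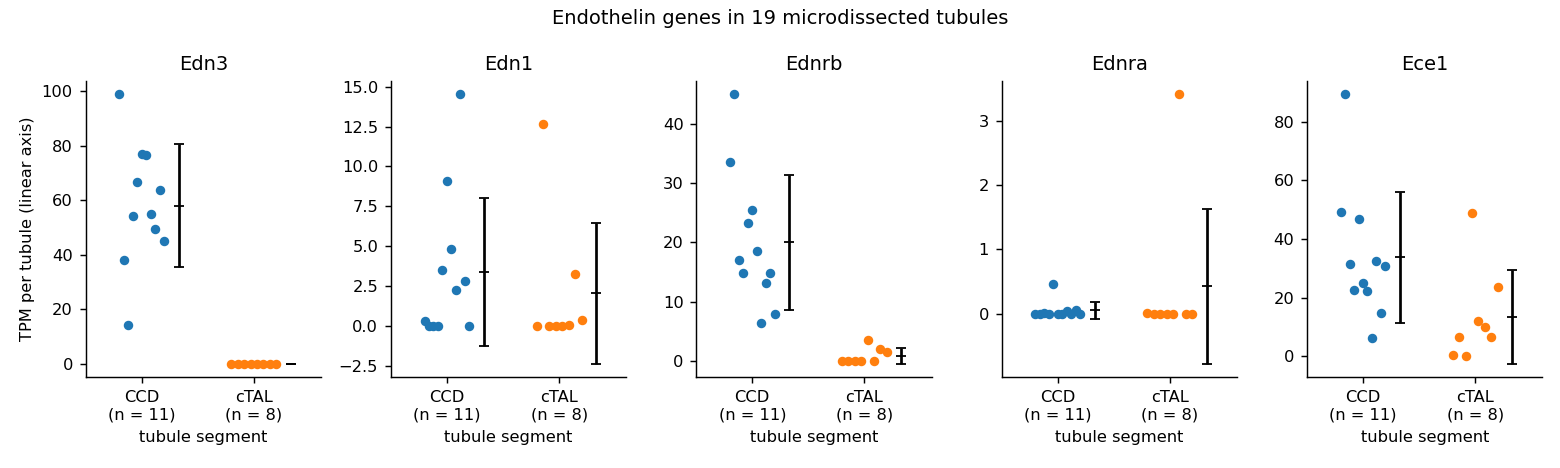
Points are single tubules (11 CCD, 8 cTAL) on linear TPM axes, and bars at the side are means with SD. Edn3 lay at 14.3 TPM or more in every CCD and at 0.11 TPM or less in every cTAL, Ednrb was separated as well, Ece1 and Edn1 overlapped, and a single cTAL carried Ednra at 3.41 TPM.

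Ednrb, the receptor linked to natriuresis, was found mainly in principal cells. It averaged 34.3 TPM over the 74 principal cells and was detected in 15 of them (20.3%, 11.8% to 31.2%), with a median of 122 TPM among those 15 and a highest value of 727 TPM. All 15 held Aqp2, at 86.6 to 4780 TPM, and all 15 held Avpr2, the vasopressin receptor, which was found in 47 of the 59 principal cells without Ednrb. Only 1 of the 15 held Foxi1 at 1 TPM or more.

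No type A cell reached 1 TPM of Ednrb, and 0 of 87 allows a share of up to 3.45%. The highest type A cell was at 0.53 TPM. Single cells of other types carried it: 1 of 23 type B cells at 94.7 TPM, 1 of 19 proximal tubule cells at 4.52 TPM, and 2 of 32 non-epithelial cells at 164 and 193 TPM. These last 2 held Aqp2 too, at 1858 and 241 TPM, as did the proximal tubule cell at 247 TPM. The exact intervals of type B, proximal tubule and non-epithelial cells overlapped that of principal cells. No difference between types was tested. The type B cell had the most genes of any cell, 4307, and 465.8 TPM summed over 7 endothelial markers.

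Endothelial cells also carry Ednrb, so their markers were set beside it. Among the 15 principal cells with Ednrb, the 7 endothelial markers summed to 1 TPM or more in 2 cells, with a median of 0.13 TPM, and the 6 mural markers in 0 cells. The highest Ednrb cell, at 727 TPM, was also the highest for the endothelial sum, at 1623 TPM. In the 59 principal cells without Ednrb the endothelial sum reached 1 TPM in 5 cells. The other 13 cells with Ednrb therefore had those markers at a sum under 1 TPM.

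In the sorted fractions Ednrb was lower in the intercalated-rich samples. It measured 12.0 and 9.95 TPM in c-Kit and 31.4 and 27.5 TPM in DBA, a 2.68-fold ratio of means in favour of DBA. Both c-Kit samples lay below both DBA samples, in a comparison where 73.9% of all genes did not overlap. The log2(TPM + 1) difference was -1.35 (SE 0.13, limma adjusted p = 3.43e-04), and 28.1% of all genes were called lower in c-Kit. The median over all genes in this comparison was -0.11, and quantile normalization, which moved the median to 0.02 and the calls from 2315 higher and 4033 lower to 3055 and 3072, kept Ednrb lower. Markers of several cell types were lower in c-Kit as well. All 6 principal cell markers were called lower, with sums of 2519 to 3392 TPM in c-Kit and 22287 to 24841 TPM in DBA. All 4 leukocyte markers were called lower, with sums of 3633 to 3888 and 11607 to 12044 TPM, and 5 of 7 endothelial markers, with sums of 248 to 253 and 349.6 to 386 TPM. The part of these cells in the Ednrb difference was not tested.

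In the GFP comparison the Ednrb difference depended on single samples. GFP-positive samples had 13.6 and 13.0 CPM, close together, and GFP-negative samples 76.0 and 21.4 CPM. The groups did not overlap, as for 70.2% of all genes. The log2 difference of -1.87 (SE 0.49) passed (edgeR adjusted p = 0.0198), where 17.3% of genes were called lower. Without the GFP-negative replicate at 76.0 CPM the difference was -0.69 (adjusted p = 0.137). The call was also lost without GFP-positive replicate 1 or 2 (adjusted p = 0.0673 and 0.0613), and with DESeq2 the adjusted p was 0.0744. The 7 endothelial markers summed to 483 CPM in that same replicate, 197 CPM in the other GFP-negative sample and 59.6 to 96.0 CPM in the GFP-positive samples, and 6 of 7 were called lower in GFP-positive cells. The 6 principal cell markers were all called higher in GFP-positive cells, at 772 to 1355 CPM against 190.2 to 216 CPM, while Ednrb was lower there. The 4 thick ascending limb markers summed to 10522 to 15510 CPM in GFP-positive and 8418 to 8654 CPM in GFP-negative samples, and 2 of them were called higher in GFP-positive cells. The part of endothelial or thick ascending limb RNA in the Ednrb difference was not tested.

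In tubules Ednrb was higher in CCD than in cTAL. CCD ran from 6.35 to 44.9 TPM with a median of 17.0, and cTAL from 0.01 to 3.64 TPM with a median of 0.04, so the segments did not overlap. All 11 CCD and 3 of 8 cTAL reached 1 TPM. The log2(TPM + 1) difference was 3.54 (SE 0.43, limma adjusted p = 1.18e-06), against 0.31 for the median gene. With quantile normalization, which moved that median to -0.03, it was 2.79. The highest CCD was m2_CCD2, and without it the difference was 3.41. Of the 7 endothelial markers only Plvap was called between the segments, at 1.32 on the log2 scale (limma adjusted p = 0.0364). Their sums ran from 90.3 to 596 TPM in CCD, with m2_CCD2 at 441 TPM, and from 40.9 to 287 TPM in cTAL. The part of endothelial RNA in the Ednrb values of tubules was not tested.

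Ednra, the A receptor, was not detected in any single cell, which allows a share of up to 1.28%, and its highest value was 0.04 TPM. It was present at low level in the sorted fractions: 1.46 and 1.54 TPM in c-Kit and 3.58 and 2.55 TPM in DBA samples. The log2(TPM + 1) difference of -0.69 (SE 0.22) passed narrowly (limma adjusted p = 0.0451) and no longer passed with quantile normalization (-0.48, adjusted p = 0.135) or when any single sample was left out. Mural cell markers moved with it: 4 of the 5 tested were called lower in c-Kit, with a sum of 128 to 167 TPM in c-Kit and 269 to 272 TPM in DBA, and their part was not tested.

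GFP-negative samples held 1.92 and 2.28 CPM of Ednra and GFP-positive samples 2.74 and 3.22 CPM. The groups did not overlap, as for 70.2% of all genes, but the log2 difference of 0.50 (SE 0.51) did not pass (edgeR adjusted p = 0.488). Mural markers did not move with Ednra here. Their sum was 37.1 to 43.4 CPM in GFP-positive and 55.1 to 68.1 CPM in GFP-negative samples. Of the 6 tested, 2 were called lower in GFP-positive cells and none higher, and their part was not tested. In tubules Ednra stayed at or under 0.46 TPM in all 11 CCD and was at 3.41 TPM in the cTAL named m6_cTAL2, with the other 7 at 0.01 TPM or less. It fell under the filter on low values and was not tested there. Ednrb exceeded Ednra in 11 of 11 CCD.

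**Figure D3:**
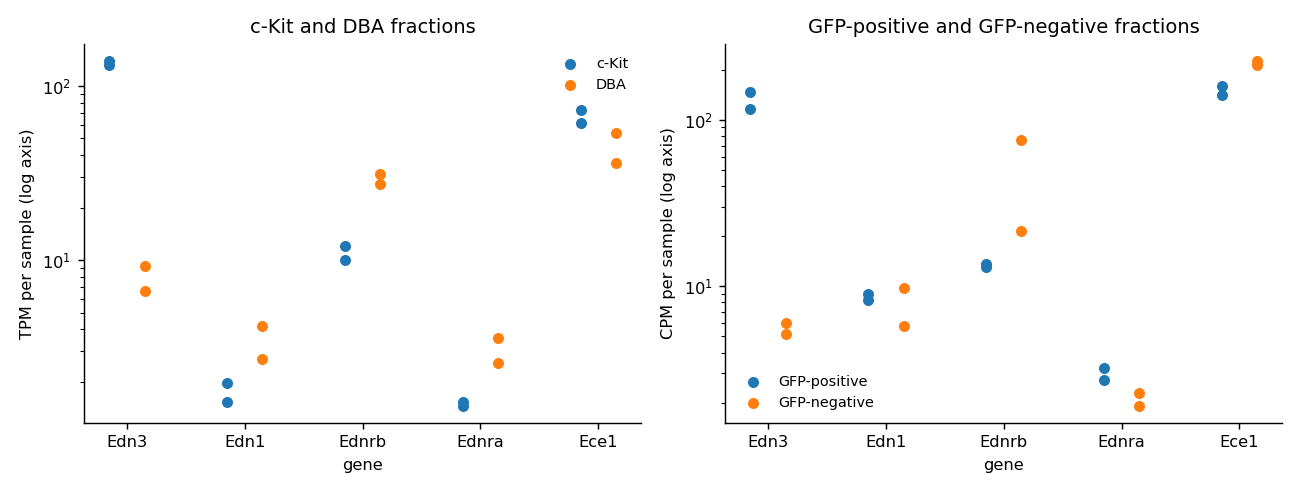
Points are single samples on log axes, TPM for the c-Kit and DBA fractions and CPM for the GFP fractions (2 samples per group). Edn3 was 17.0-fold higher in c-Kit than in DBA and 23.6-fold higher in GFP-positive than in GFP-negative cells by ratio of means, and Ednrb was lower in both, with 1 GFP-negative sample at 76.0 CPM.

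Ece1, which cuts the inactive precursor to the active peptide, was the most widely detected member. It averaged 117 TPM in type A cells, with detection in 41 of 87 (47.1%, 36.3% to 58.1%), and 88.1 TPM in non-epithelial cells, with 12 of 32 (37.5%, 21.1% to 56.3%). Principal cells averaged 42.4 TPM with 17 of 74 (23.0%, 14.0% to 34.2%), type B cells 29.9 TPM with 3 of 23 (13.0%, 2.78% to 33.6%), and proximal tubule cells 25.1 TPM with 6 of 19 (31.6%, 12.6% to 56.6%). In this order of means the intervals of neighbouring types overlapped, while the type A interval did not overlap that of principal or type B cells. The intervals cover counting error only, not spread between animals, so they cannot decide whether the types differ. Within type A, detection itself was 35.1% in the first 37 columns and 56.0% in the last 50, a division described below. No difference between types was tested. In type B and proximal tubule cells the 2 highest cells held 99.6% and 96.4% of the signal.

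Among the 45 type A cells with Edn3, 23 also held Ece1 (51.1%), and so did 18 of the 42 without Edn3 (42.9%). The cells with Edn3 had a median of 2944 genes at 1 TPM or more and those without 2569.5, and the part of this difference in detection was not tested. For Ednrb in principal cells these medians were 2861 with and 2942 without. Ednrb and Edn3 were found together in 3 cells, 2 of them principal cells. The last 50 type A columns held Aqp2 in 49 cells and the first 37 in 9, a division placed after looking at Aqp2. Edn3 was detected in 24 (48.0%) and 21 (56.8%) of these cells and Ece1 in 28 (56.0%) and 13 (35.1%), while Ednrb was detected in 0 of both.

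The sorted fractions gave opposite directions for Ece1. It was 72.5 and 61.0 TPM in c-Kit and 53.7 and 35.9 TPM in DBA, a log2(TPM + 1) difference of 0.59 (SE 0.19, limma adjusted p = 0.0420). It was 160.2 and 140.0 CPM in GFP-positive and 225 and 212 CPM in GFP-negative samples, a log2 difference of -0.54 (SE 0.17, edgeR adjusted p = 0.0374). The groups did not overlap in either comparison, as for 73.9% of all genes between c-Kit and DBA and 70.2% in the GFP comparison. Of all genes 44.3% and 32.6% were called. The Ece1 calls were not stable. The c-Kit call was lost without c-Kit replicate 1, c-Kit replicate 2 or DBA replicate 2 (adjusted p = 0.224, 0.102 and 0.194), without a variance trend (0.111) and without a filter on low values (0.146). The difference itself ran from 0.30 without DBA replicate 2 to 0.87 without DBA replicate 1. The GFP call was lost without GFP-negative replicate 1, GFP-negative replicate 2 or GFP-positive replicate 2 (adjusted p = 0.160, 0.106 and 0.139). Some markers of other cells were higher in GFP-negative samples. The 5 proximal tubule markers summed to 15094 to 15773 CPM against 1802 to 2836 CPM, and the 4 leukocyte markers to 314 to 673 CPM against 59.5 to 63.9 CPM. Endothelial markers were higher there too and thick ascending limb markers had a lower sum, as given for Ednrb. The part of these cells in the Ece1 differences was not tested. The difference between these 2 effects was not tested, since the tables were normalized separately.

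In tubules Ece1 ran from 6.32 to 89.3 TPM in CCD, with a median of 30.6, and from 0.01 to 48.7 TPM in cTAL, with a median of 8.18. The segments overlapped. The log2(TPM + 1) difference of 1.89 (SE 0.62) passed (limma adjusted p = 0.0353), and with quantile normalization it was 1.33 and did not (adjusted p = 0.0662). The call was also lost when any 1 of 7 tubules was left out: m1_CCD1, m4_CCD1, m6_CCD2, m1_cTAL1, m2_cTAL1, m3_cTAL1 or m7_cTAL1 (adjusted p from 0.0526 to 0.0820). Ece1 exceeded Ednrb in 8 of 11 CCD and Edn3 exceeded Ece1 in 9 of 11.

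**Figure D4:**
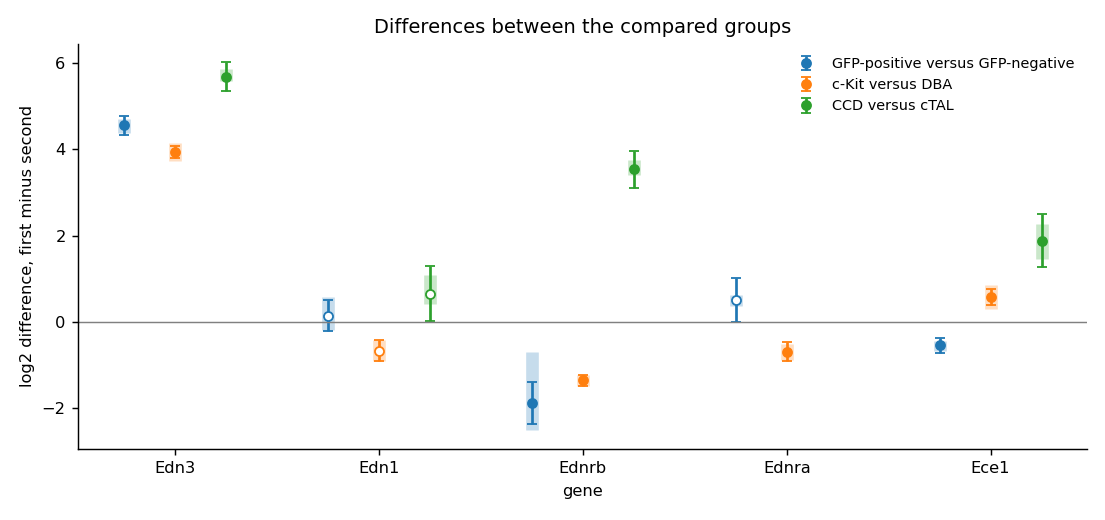
Circles are log2 differences (first group minus second) with their SE, filled where the adjusted p was under 0.05, and pale bars span the values with each sample left out in turn. Edn3 lay at 3.94 to 5.68 in the 3 comparisons, Ednrb at -1.87, -1.35 and 3.54, and Ece1 changed direction between the GFP and c-Kit comparisons.

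Counted together, 3 of the 5 members tested were called in the GFP comparison, 4 of 5 between c-Kit and DBA and 3 of 4 between CCD and cTAL. The shares called over all genes were 32.6%, 44.3% and 18.7%. In these main fits Edn2 was untested in each comparison and Ednra between the tubules. The genes were chosen with these levels known, so the counts are descriptions.

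The genes most alike in pattern were sought by Pearson's r of log2(TPM + 1), as a description. Over all single cells Edn3 was most like Pam (r = 0.48), Adgrf5 (0.47) and Dmrt2 (0.46), among 7565 genes. All genes of a cell share its amplification and depth, and cells held from 1092 to 4307 genes at 1 TPM or more. Ece1 was most like Adgrf5 (0.39), Kit (0.35) and Dpysl2 (0.35). Pam encodes the enzyme that amidates peptide hormones, and Dmrt2 and Kit were on the type A marker list. Over the 19 tubules, where the 2 segments set most of the likeness, Edn3 was most like Insrr, Avpr1a and Sh2d4b (each r = 0.99), among 13520 genes. Insrr was on the type B marker list. Ednrb was most like Tmem229a, Epor and Tmem200b (r = 0.97, 0.97 and 0.96). Edn1 was most like Ikbke, Nemp2 and E530011L22Rik (0.87, 0.85 and 0.84), and Ece1 was most like Atp4a and Srrt (0.90 and 0.90).

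Beyond the 6 members, 41 genes of the pathway were followed: processing and breakdown enzymes, G proteins, phospholipases and calcium channels, protein kinases C, desensitization, nitric oxide and cyclic GMP, regulators of Edn1 and transport targets. Between c-Kit and DBA, 38 passed the filter, of which 6 were called higher and 23 lower in c-Kit. Their median log2 difference was -0.54 beside -0.11 for all genes, of which 16.1% were called higher and 28.1% lower. With quantile normalization the split was 6 and 19. The nitric oxide group was lower in all 3 tested genes: Nos3, the endothelial synthase, by a log2 difference of -0.69, and the guanylate cyclase subunits Gucy1a3 and Gucy1b3 by -0.90 and -0.84. With quantile normalization 1 of these 3 was called. Endothelial, mural, leukocyte and principal cell markers were lower in c-Kit as given above, and their part was not tested.

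Among the enzymes that process and destroy endothelins, Mme and Cma1 were the ones called higher in c-Kit. Mme, which encodes neprilysin and breaks down endothelin peptides, was 533 and 564 TPM in c-Kit and 29.3 and 30.4 TPM in DBA. All c-Kit values exceeded all DBA values, where 73.9% of all genes did not overlap. The log2(TPM + 1) difference was 4.15 (SE 0.06, limma adjusted p = 5.78e-07). In single cells Mme was detected in 81 of 87 type A cells with a mean of 639 TPM, against 12 of 23 type B cells (15.6 TPM) and 27 of 74 principal cells (69.1 TPM). All 45 type A cells with Edn3 held it, and 36 of the 42 without.

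Cma1, a mast cell chymase that can cut endothelin precursors, had a similar bulk difference of 4.22 (20.2 and 18.5 TPM in c-Kit, 0.03 and 0.15 TPM in DBA). In single cells it was detected in 8 in all, 2 of them type A and 1 of these at 8032 TPM. Furin, which makes the first cut, was lower in c-Kit by a difference of -0.53, and Ece2 did not pass (-0.15). Kel was under the filter. The largest falls on the list were those of Aqp2 (-3.29) and Scnn1g (-2.26), a subunit of the epithelial sodium channel; both are principal cell markers as well.

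In the GFP comparison 40 of the 41 genes were tested, with 15 called higher and 5 lower in GFP-positive cells, where 15.2% and 17.3% of all genes were. The median was 0.26 beside 0.02 for all genes. All 5 transport genes were higher, led by Scnn1b at 4.07, and Itpr2, a calcium release channel, rose by 3.45. The lowest called genes were Gucy1a3 at -1.46 and the G protein gene Gna12 at -1.27. Mme was higher by 1.57 (489 and 732 CPM in GFP-negative, 1562 and 2064 CPM in GFP-positive cells), and Furin lower by a difference of -0.75. Ece2, Kel, Nos1, Nos2, Nos3 and Gucy1b3 did not pass, with values from -2.18 (Nos2) to 3.63 (Kel), and Cma1 had no read in any GFP sample. On RPKM values, 11 of the 35 genes tested were called, all of them higher.

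Between the tubules 33 of the 41 genes were tested, and 14 were called higher and 1 lower in CCD, where 13.2% and 5.5% of all genes were. The median was 0.87 beside 0.31 for all genes. With quantile normalization the split was 13 and 3 for the pathway and 1221 and 1244 for all genes, against 1782 and 744 without it. The transport genes Aqp2 (9.80) and Scnn1b (9.41) differed most. Plcb1, a phospholipase that G proteins activate, was the single gene called lower, at -3.01. None of the enzymes tested passed: Ece2 was at 0.87, Furin at 0.62 and Mme at -0.15. Of the nitric oxide group only Gucy1a3 was abundant enough to test, at 0.62 without passing.

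Of the 6 listed regulators of Edn1, Hif1a and Gata2 are described, a choice made after their values were seen. Hif1a, the oxygen-sensing factor, was detected in 67 of 74 principal cells with a mean of 121 TPM, against 37 of 87 type A cells (16.1 TPM). Gata2 was detected in 63 of 74 principal cells (465.6 TPM) and 40 of 87 type A cells (97.3 TPM). Both were called higher in CCD than cTAL, by 2.52 and 6.90 on the log2 scale, and lower in c-Kit than DBA, by differences of -1.12 and -1.64. In the GFP comparison both were called in the other direction, higher in GFP-positive cells by 0.51 (edgeR adjusted p = 0.0443) and 2.31 (6.92e-04). Their levels were given with no test between cell types, as for the members.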

How the data were processed

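No reads were processed here. Read counts (GFP samples) were deposited by the authors, made with HTSeq-count on RefSeq mm10 per the file headers and names, and the authors' deposited RPKM for the same samples served as an alternative. TPM values were deposited by the authors for cells, c-Kit and DBA samples and tubules. STAR 2.5.1b, RSEM 1.2.31, Seurat and GRCm38.p5 are named, per the submitters' processing notes, with no stated role. Reads assigned to no gene (66.5% to 72.7%) stayed out. The strand setting of the counting: not given in the sources used here.

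Counts were tested with edgeR 4.0.16 (TMM, filterByExpr, quasi-likelihood F test; CPM uses TMM library sizes). TPM was tested with limma 3.58.1 on log2(TPM + 1), with a variance trend, where a gene averaged 1 TPM or more. R was 4.3.3. P-values were adjusted by Benjamini-Hochberg over all tested genes, and called under 0.05. Folds on log2(TPM + 1) understate changes of low genes. The fits were tested on simulated data. Single-cell shares used a threshold of 1 TPM and scipy's exact 95% intervals, and for a count of 0 the limit of 3 cells over all cells. No cell was identical to another, all were kept, and no doublet caller was run. Groups come from the sample titles. Sort labels could not be tied to single-cell columns, and the prefixes m1 to m7 of the tubule columns (7 among CCD, 6 among cTAL) are not explained in the labels.

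The members and lists were chosen with earlier results of these data known. Named were the 6 members, and per comparison the processing, breakdown and nitric oxide genes and up to 2 called pathway genes per direction with the largest difference. Also named were the 3 genes most alike to each member detected in at least 10% of cells or averaging at least 1 TPM in tubules. One of these is not reported here. The Edn1 regulators in cells were chosen after their values were seen.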

Additional observations from a re-analysis of the deposited data

Results flagged for a closer look

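In 5 groups of cTAL values examined, 2 held a tubule far from the others by Dixon's ratio, the gap to the nearest value over the range. The usual rate of 1 flag in 20 groups assumes normal values. It does not hold here, since Edn1 was listed at 0 in 4 and Ednra in 6 of the 8 cTAL. Edn1 was at 12.6 TPM in the tubule m2_cTAL1, while the next highest cTAL was at 3.27 TPM and 4 of 8 were listed at 0. Ednra was at 3.41 TPM in m6_cTAL2, while the other 7 were at 0.01 TPM or less. That tubule also had the highest summed level of the 6 mural markers among the cTAL, 24.5 TPM, and m7_cTAL2 the next at 19.3 TPM. The part of other cells' RNA in either value was not tested.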

How the results depend on the processing

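Edn3 kept its direction and its call in every alternative run in all 3 comparisons, with each sample left out giving log2 differences of 4.38 to 4.70 (GFP), 3.73 to 4.16 (c-Kit against DBA) and 5.59 to 5.86 (tubules). Ednrb did so between c-Kit and DBA (-1.47 to -1.22) and between tubules (3.41 to 3.76), but in the GFP comparison ran from -2.51 to -0.69 with the call lost without GFP-negative replicate 1 (adjusted p = 0.137) and without GFP-positive replicates 1 (0.0673) and 2 (0.0613). Edn1 turned to -0.19 without GFP-negative replicate 1 (adjusted p = 0.769), and was 0.59 without GFP-negative replicate 2. The number of members called in the GFP comparison was 1 on the RPKM values and 1 to 2 with a sample left out, against 3. Between c-Kit and DBA it was 2 without a filter and 2 to 3 with a sample left out, against 4. Between tubules it was 2 to 3 with a tubule left out and 4 with sample weights, against 3. Pathway calls were 11 on the RPKM values, and 15 to 19, 21 to 27 and 13 to 16 with a sample left out. Calls over all genes fell from 5101 to 1639 on RPKM and from 6348 to 3600 and 3458 without DBA replicates 1 and 2, and rose from 2526 to 4401 with sample weights. The causes of these changes were not tested, and the fits without a sample also rest on fewer samples. The number of members with a mean of 1 TPM or more in some cell type was 4, and 1 with the median over cells. At a threshold above 0 TPM Edn3 was listed in 82.8% of type A cells and 39.2% of principal cells. Most type B and most non-epithelial cells also held it at that threshold, so type A stood less apart from them than at 1 TPM.

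With the replicate block, 3 members were called in the GFP comparison (Ednrb at -1.61, adjusted p = 0.00283) and 3 between c-Kit and DBA, where Ednra was lost (adjusted p = 0.0622). Deviations of same-numbered samples correlated at 0.18 (GFP), 0.03 (c-Kit and DBA) and -0.01 to 0.23 (tubule prefixes). The RPKM columns of the GFP samples are headed first and second experiment, so those numbers may mark shared experiments; with 2 pairs the correlation is the same for both and decides nothing, and the fits without the block are the ones reported. For all genes the GFP block gave 5897 calls against 5101. The column prefix as a block, and the mean per prefix, were chosen after seeing the data; with the block 3 members were called, and with the mean Ece1 was lost (2.27, adjusted p = 0.0744). Depth is unknown for TPM, so detection limits in cells cannot be given in reads.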
